A study of Mus musculus with 2 samples.

Results

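The splicing factor genes described here are the 62 genes on the array, of 17874 named genes in all, whose symbols begin with Srsf, U2af, Sf3a, Sf3b, Snrp, Prpf or Hnrnp. Symbol alone decided membership, but the choice was made with earlier results of these data known. There were 10 Srsf, 3 U2af, 3 Sf3a, 6 Sf3b, 9 Snrp, 12 Prpf and 19 Hnrnp genes, measured by 63 probe sets that are each annotated to exactly 1 gene.

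Each of 2 Affymetrix mouse arrays profiled CFU-E cells (colony-forming units, erythroid), red cell progenitors that normally need erythropoietin to survive. The first array is of cells kept for 3 h in Panserin medium, and the other is of cells lysed at 0 h. In both, the cells came from fetal livers of BALB/c embryos at gestational day 13.5 that per the protocol lacked the erythropoietin receptor (EpoR-/-), were enriched by antibody depletion from 40 to 50 pooled livers, and were deprived of growth factors for 1 h beforehand. The genotype label of both samples reads Epo KO instead. Supplemental growth factors appear in the treatment label of the 3 h sample, control in that of the 0 h sample, whereas the protocol has none added, so the samples are called by their times. Only the 0 h sample carries a label for the strain, and no array of cells with the receptor was used here. Each time has 1 array of pooled livers, so no difference below has an error, a replicate check or a test.

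Splicing removes introns from precursor RNA on the spliceosome, which is built from small nuclear ribonucleoproteins (snRNPs) and many other proteins. SR proteins, encoded by the Srsf genes, bind exons and help to recruit the spliceosome, and U2AF and the SF3a and SF3b complexes mark the end of the intron and its branch site. Snrp genes encode proteins of the snRNPs themselves, Prpf genes encode factors of spliceosome assembly and catalysis, and heterogeneous nuclear ribonucleoproteins (hnRNPs) coat the transcript and often oppose SR proteins. In maturing red cell precursors, alternative splicing is known to change in transcripts such as that of the membrane skeleton protein 4.1R. The arrays give the signal of a gene's probes and do not measure splicing itself.

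The starts of 6 members are shown, as 250 bases of RefSeq sequence before the annotated start (build GRCm38.p6), 5′ to 3′ on the strand of the gene. Srsf6 is the member that differed most, Srsf5 is a close relative of it that differed little, and the 3 Sf3a genes and Sf3b2 encode partners in the U2 snRNP that all hold the same short word. Capitals mark matches on either strand to any of the words CCGGAAG (the core bound by ETS factors), CACGTG (an E-box), TGACGT (part of the cyclic AMP response element), GCATGCG (the core bound by NRF1), CCAAT or TATAAA. The windows are chr2:162931258-162931507 (plus strand), chr12:80945249-80945498 (plus), chr11:4160104-4160353 (plus), chr10:80798485-80798734 (plus), chr4:124714611-124714860 (plus) and chr19:5295458-5295707 (minus), for the genes in the order below, where Sf3b2 has 2 annotated starts and the one listed first is shown.
Srsf6: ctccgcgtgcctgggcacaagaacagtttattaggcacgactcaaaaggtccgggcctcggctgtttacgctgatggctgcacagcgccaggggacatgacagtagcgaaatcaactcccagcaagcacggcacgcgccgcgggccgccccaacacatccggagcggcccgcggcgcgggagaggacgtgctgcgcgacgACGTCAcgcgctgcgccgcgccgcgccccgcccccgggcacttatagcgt
Srsf5: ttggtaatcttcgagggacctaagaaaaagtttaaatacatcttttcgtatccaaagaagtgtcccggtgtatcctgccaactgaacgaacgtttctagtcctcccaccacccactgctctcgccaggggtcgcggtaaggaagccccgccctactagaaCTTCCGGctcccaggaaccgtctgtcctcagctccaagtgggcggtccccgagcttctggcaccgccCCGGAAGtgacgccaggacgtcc
Sf3a1: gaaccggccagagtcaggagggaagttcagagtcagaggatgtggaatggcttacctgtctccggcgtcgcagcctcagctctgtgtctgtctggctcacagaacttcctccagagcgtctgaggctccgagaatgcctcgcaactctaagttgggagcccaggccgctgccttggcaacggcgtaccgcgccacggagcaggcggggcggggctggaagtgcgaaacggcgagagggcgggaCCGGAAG
Sf3a2: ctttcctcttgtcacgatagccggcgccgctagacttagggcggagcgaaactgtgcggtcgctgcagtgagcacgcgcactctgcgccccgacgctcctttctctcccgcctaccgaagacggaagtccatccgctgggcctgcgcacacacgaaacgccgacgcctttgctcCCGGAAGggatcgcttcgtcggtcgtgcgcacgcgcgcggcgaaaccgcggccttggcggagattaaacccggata
Sf3a3: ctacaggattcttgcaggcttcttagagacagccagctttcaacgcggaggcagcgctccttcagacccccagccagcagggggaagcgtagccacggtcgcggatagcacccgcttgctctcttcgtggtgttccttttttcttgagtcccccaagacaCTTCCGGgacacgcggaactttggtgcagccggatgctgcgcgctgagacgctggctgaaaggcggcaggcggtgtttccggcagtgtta
Sf3b2: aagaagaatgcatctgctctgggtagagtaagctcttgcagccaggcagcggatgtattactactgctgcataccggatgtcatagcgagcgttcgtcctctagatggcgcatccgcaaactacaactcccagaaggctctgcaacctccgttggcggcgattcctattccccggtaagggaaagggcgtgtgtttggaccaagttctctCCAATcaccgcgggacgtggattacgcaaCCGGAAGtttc
The stretch shown for Srsf6 holds a single match, to TGACGT on the opposite strand, which begins 50 bases before the start. CCGGAAG or its reverse complement begins 7 bases before the start of Sf3a1, 76 before that of Sf3a2, 90 before that of Sf3a3 and 11 before that of Sf3b2. Srsf5 holds it at 90 and at 23 bases.

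After 3 h the splicing factor genes were almost where they had been at 0 h. Values are on the log2 scale of the deposited table, and differences are 3 h minus 0 h, so that 0.58 corresponds to 1.5-fold. Of the 62 genes, 57 had at least 1 of their 2 values at or above 5.70, a floor set at the median over all genes and both arrays, and the other 5 are given separately. The 57 genes had a median difference of -0.01, against 0.01 for all 9284 genes that reached the floor. Of the 57, 26 were higher and 31 lower at 3 h, where 51.5% and 48.5% of all genes were. After quantile normalization of the arrays against each other this split turned round, to 31 higher and 26 lower, so no direction can be given for the group.

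By 1.5-fold or more, 1 of the 57 was higher (Srsf6) and 0 were lower, against 6.94% and 4.8% of all genes. By 1.2-fold or more, a band added after the values were seen, 3 were higher (22.4% of all genes) and 8 lower (19.6% of all genes). The remaining 46 genes, or 80.7%, lay within 1.2-fold, against 58% of all genes. The robust SD of the differences (from the median absolute deviation) was 0.15 over the 57 genes and 0.31 over all genes. Bright genes spread less on these arrays (robust SD 0.22 at a mean level of 10 or more, 0.34 between the floor and 10), and many members were bright. At a mean level of 10 or more, 84.4% of 32 splicing factor genes and 72% of all 1289 genes lay within 1.2-fold. Between the floor and 10 these shares were 76% of 25 and 55.7% of 7995. These are descriptions of 2 arrays, and strong array signals can saturate.

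**Figure D1:**
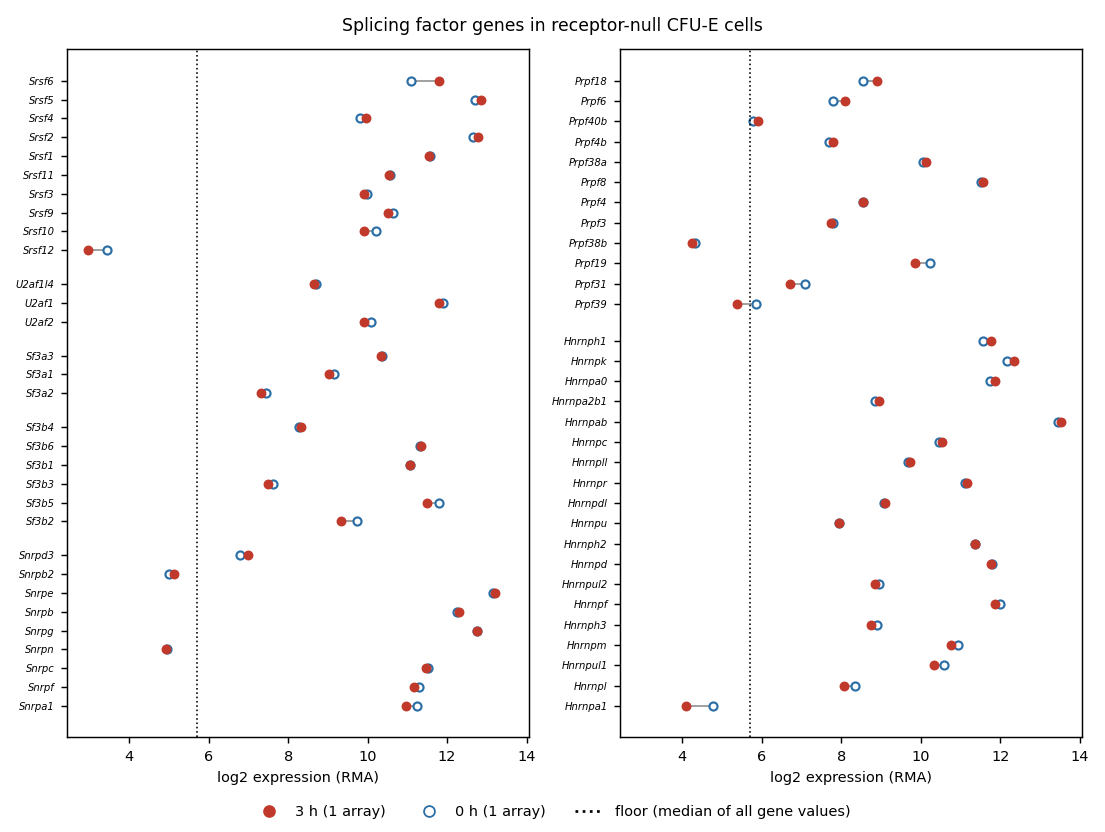
Log2 expression (horizontal axis) of each of the 62 splicing factor genes at 3 h (filled red points, 1 array) and at 0 h (open blue points, 1 array), grouped by family and ordered by difference within it, with the floor of 5.70 as a dotted line. For most genes the points overlap, Srsf6 is farthest to the right of its 0 h value, and 5 genes lie left of the floor at both times.

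Among the SR protein genes, Srsf6 stood apart. It encodes SRp55, a regulator of alternative exons, and had a level of 11.79 at 3 h and of 11.10 at 0 h, a difference of 0.69 or 1.61-fold. Its probe set is of the kind (suffix _s_at) that can match several transcripts or genes, and no plain probe set of Srsf6 was in the table, so no other measurement of this gene bears on it. Its nearest relatives differed in the same direction but by little. Srsf5 (SRp40) was at 12.86 at 3 h and 12.71 at 0 h, and Srsf4 (SRp75) was at 9.95 at 3 h and 9.80 at 0 h.

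The other SR protein genes were close to their levels at 0 h. Srsf2, which encodes SC35, a factor recurrently mutated in human myelodysplastic syndromes, was at 12.79 at 3 h and 12.66 at 0 h. Srsf1, which encodes the founding SR protein SF2/ASF, was at 11.55 at 3 h and 11.57 at 0 h. Srsf3 (SRp20), one of the smallest SR proteins, was at 9.90 at 3 h and 9.99 at 0 h. All 3 differed by 1.10-fold or less. Srsf10 encodes SRp38, which acts as a general repressor of splicing when dephosphorylated, as after heat shock. It was the lowest of the family among genes at the floor, at 9.90 at 3 h and 10.21 at 0 h, a difference of -0.31. Srsf11 (-0.04) and Srsf9 (-0.13) lay between. The 9 Srsf genes at the floor had a median of -0.02, with 4 higher and 5 lower. That median was 0.0006 after quantile normalization and 0.02 after removal of an intensity trend, so its sign is not settled.

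All 3 genes of the U2AF group were slightly lower at 3 h. U2af2, the subunit that binds the pyrimidine tract before the end of the intron, was at 9.92 at 3 h and 10.08 at 0 h. U2af1, which reads the AG at the intron's end and is another gene mutated in human myelodysplastic syndromes, was at 11.79 at 3 h and 11.91 at 0 h. U2af1l4, a relative of U2af1, was at 8.66 at 3 h and 8.71 at 0 h. The median of the 3 was -0.12, against 0.01 for all genes, and all 3 lay within 1.2-fold, as did 58% of all genes. That median was -0.09 after quantile normalization and -0.08 after removal of the intensity trend.

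The SF3a and SF3b complexes bind the branch site as parts of the U2 snRNP. Of their 9 genes 7 were lower and 2 higher at 3 h, with a median of -0.12. Within 1.2-fold lay 7 of the 9, against 58% of all genes. Sf3b1, whose protein clamps the branch site and which is the splicing gene most often mutated in human myelodysplastic syndromes with ring sideroblasts, was at 11.06 at both times, a difference of -0.0007. Sf3b2, which encodes the partner of the Sf3b4 protein, was the lowest of the group, at 9.32 at 3 h and 9.74 at 0 h, which is 1.34-fold lower. Its partner gene Sf3b4 was nearly level, at 8.33 at 3 h and 8.28 at 0 h, by 1 probe set with a suffix (_x_at).

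Sf3b5, a small subunit of the SF3b complex, was at 11.49 at 3 h and 11.79 at 0 h. Sf3b3, the large scaffold subunit, was at 7.50 at 3 h and 7.63 at 0 h. Sf3b6, which encodes the p14 protein next to the branch adenosine, was at 11.35 at 3 h and 11.31 at 0 h. The spread over the 6 SF3b genes, from -0.42 to 0.05, was thus wider than over the 3 SF3a genes. Its low end rests on Sf3b2 and Sf3b5, whose probe sets carry a suffix (_a_at and _s_at). The SF3b genes with plain probe sets, Sf3b1 and Sf3b3, differed by -0.0007 and -0.13. Sf3a1 and Sf3a2 each differed by -0.12 and Sf3a3 by -0.04. Their levels were 9.04 at 3 h and 9.15 at 0 h for Sf3a1, 7.32 at 3 h and 7.43 at 0 h for Sf3a2, and 10.33 at 3 h and 10.37 at 0 h for Sf3a3.

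**Figure D2:**
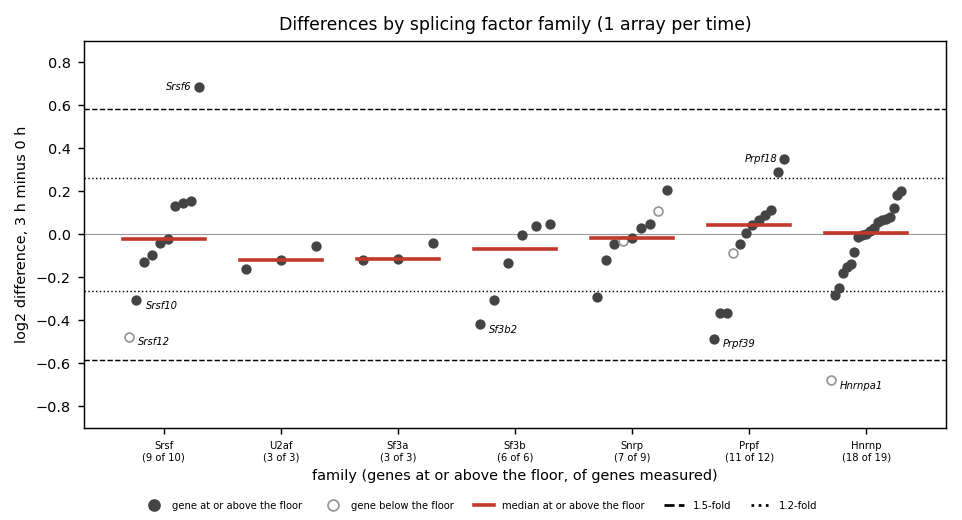
Log2 difference, 3 h minus 0 h (vertical axis), of every splicing factor gene by family, with filled points for genes at or above the floor, open points for genes below it, red bars for the median of the filled points, and dashed and dotted lines at 1.5-fold and 1.2-fold. Srsf6, at 0.69, is the only filled point beyond a dashed line, and the family medians lie between -0.12 and 0.04.

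Among genes of the snRNP proteins, 7 of 9 reached the floor, with a median of -0.02 and 3 higher and 4 lower. Of these 7, 6 lay within 1.2-fold, against 58% of all genes. The median was 0.05 after quantile normalization and 0.03 after removal of the intensity trend, so it has no settled sign. Sm proteins form the ring that is common to the spliceosomal snRNPs. Their genes Snrpb (12.29 at 3 h, 12.26 at 0 h), Snrpe (13.20 at 3 h, 13.15 at 0 h) and Snrpg (12.75 at 3 h, 12.76 at 0 h) were nearly level. Snrpf, of the same ring, was at 11.17 at 3 h and 11.29 at 0 h. Snrpd3, also of the ring, was highest of the family, with a difference of 0.21 from its level of 6.79 at 0 h. Snrpa1, a protein of the U2 snRNP, was lowest, at 10.95 at 3 h and 11.24 at 0 h, and Snrpc, a protein of the U1 snRNP, was at 11.46 at 3 h and 11.51 at 0 h.

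The Prpf genes went both ways, with 6 of 11 at the floor (54.5%) within 1.2-fold, near the 58% of all genes. Of the 11, 7 were higher and 4 lower, with a median of 0.04. Prpf18, a factor of the second catalytic step, was at 8.91 at 3 h and 8.56 at 0 h (1.27-fold higher), and Prpf6, which bridges the U4/U6 and U5 snRNPs, was at 8.08 at 3 h and 7.79 at 0 h. Below them were Prpf19, the ubiquitin ligase of the catalytic spliceosome, at 9.86 at 3 h and 10.23 at 0 h (1.29-fold lower), and Prpf31, a U4/U6 protein, at 6.71 at 3 h and 7.08 at 0 h (1.29-fold lower). Prpf39, a U1-associated factor, was at 5.38 at 3 h and 5.86 at 0 h, and as it crossed the floor its difference of -0.49 rests on a dim signal. Prpf40b, the member just above the floor, was at 5.90 at 3 h and 5.79 at 0 h.

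Other Prpf genes were closer to level. Prpf8, the large U5 protein that holds the catalytic RNA, was at 11.57 at 3 h and 11.52 at 0 h. Prpf3 (-0.04) and Prpf4 (0.01), which sit together on the U4/U6 snRNP with Prpf31, were also nearly level, so of these 3 U4/U6 genes only Prpf31 lay beyond 1.2-fold. The kinase gene Prpf4b (0.09) and Prpf38a (0.07), of the precatalytic spliceosome, were close to level too.

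The hnRNP genes were nearly all level. Of 18 at the floor 17 lay within 1.2-fold (94.4%, against 58% of all genes). With a median of 0.01, 10 were higher and 8 lower, where 51.5% and 48.5% of all genes were. Hnrnph1, which binds runs of G, was highest, at 11.77 at 3 h and 11.57 at 0 h. Hnrnpk, a protein that binds runs of C, followed at 12.35 at 3 h and 12.17 at 0 h. Lowest was Hnrnpl, which binds CA repeats, at 8.06 at 3 h and 8.34 at 0 h, and next Hnrnpul1 at 10.33 at 3 h and 10.58 at 0 h. While Hnrnpl differed by -0.28, its paralog Hnrnpll, a regulator of CD45 splicing in lymphocytes, was nearly level (0.06). Genes of the G-run group went both ways as well, with Hnrnpf (-0.14) and Hnrnph3 (-0.15) lower, Hnrnph1 (0.20) higher and Hnrnph2 (-0.0026) level. Of the others, Hnrnpa0 (0.12), Hnrnpa2b1 (0.08), Hnrnpab (0.07), Hnrnpc (0.07), Hnrnpr (0.03), Hnrnpdl (0.01), Hnrnpd (-0.01), Hnrnpul2 (-0.08) and Hnrnpm (-0.18) lay between these ends. Hnrnpu, which encodes the nuclear scaffold protein, is the only member with 2 probe sets, and these disagreed: 1 was at 10.66 at 3 h and 10.80 at 0 h, the other, below the floor, at 5.23 at 3 h and 5.08 at 0 h, and their average differed by 0.0002.

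The 5 members below the floor at both times were Hnrnpa1, Snrpb2, Snrpn, Prpf38b and Srsf12. Hnrnpa1, which encodes an hnRNP found in nearly every cell, was at 4.10 at 3 h and 4.77 at 0 h by its 1 probe set, a difference of -0.68. A dim probe set is no evidence that the gene was silent, and its difference lies where the signal is near background. Snrpb2, a U2 snRNP protein gene just below the floor, was at 5.12 at 3 h and 5.01 at 0 h. Snrpn, an imprinted Sm gene used mainly in neurons, was at 4.93 at 3 h and 4.96 at 0 h. Prpf38b differed by -0.09 and Srsf12 by -0.48, at levels of 2.97 at 3 h and 3.44 at 0 h for Srsf12.

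By their list medians, markers of other cell types and erythroid markers moved more between the same arrays than the splicing factor genes did. Single markers such as Afp (-0.07), Kit (0.02) and Ermap (0.07) were nearly level. Of all genes at or above the floor, 51.5% were higher and 48.5% lower at 3 h. Of 10 granulocyte markers 9 reached the floor and all 9 were higher at 3 h, with a median of 1.06. Their summed linear signal over all 10 was 12450 at 3 h and 6459 at 0 h. Of 10 macrophage markers 4 reached the floor, 3 of them higher (median 0.90, summed signal 2242 at 3 h and 1454 at 0 h) and Vcam1 lower (-0.98). The defining markers C1qa, C1qb, C1qc, Adgre1, Cd68 and Mrc1 were below the floor on both arrays. All 13 hepatocyte markers reached the floor, 11 of them lower (median -0.19, summed signal 86489 at 3 h and 90875 at 0 h). The exceptions, Krt8 (0.95) and Krt18 (0.88), differed most of that list. Of 11 erythroid markers 10 were higher, with a median of 0.61 and a summed signal of 15463 at 3 h and 11565 at 0 h, while Epb42 was lower (-0.68). Of 4 megakaryocyte markers 3 were higher (median 0.27), and Ighm alone of 4 lymphoid markers reached the floor. The summed signal of all 62 splicing factor genes was 122243 at 3 h and 120575 at 0 h. In such mixtures a change in the share of a cell type and a change in RNA per cell cannot be told apart, and the part of these markers in the Srsf6 difference was not tested.

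Other genes of splicing were followed in 12 lists, drawn up with earlier results of these data known. Among 22 alternative splicing regulators outside the 7 families that reached the floor, the median was 0.07. By 1.5-fold or more 3 were higher and 0 lower, against 6.94% and 4.8% of all genes, and by 1.2-fold or more 9 were higher and 2 lower, against 22.4% and 19.6%. Ptbp2, the neuronal form of the polypyrimidine tract binding protein, was highest, at 10.59 at 3 h and 9.80 at 0 h (1.73-fold), while Ptbp1 differed by -0.08. Tial1, which encodes the U-rich binding protein TIAR, was at 9.20 at 3 h and 8.52 at 0 h (1.60-fold), and its relative Tia1 differed by -0.32. Celf2, of the CELF family, was at 8.96 at 3 h and 8.33 at 0 h (1.54-fold), and Ewsr1 was at 11.45 at 3 h and 10.88 at 0 h. Like Srsf6, Celf2 and Ewsr1 had no plain probe set. Rbfox2, a regulator of erythroid exons including one of protein 4.1R, was lowest, at 6.52 at 3 h, a difference of -0.48.

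SR-related proteins carry the same kind of arginine and serine repeats as the Srsf proteins. Of their 13 genes at the floor 9 were higher and 4 lower, with a median of 0.18, and 6 were at least 1.2-fold higher, against 22.4% of all genes. Luc7l3 (0.41), Scaf11 (0.38) and Scaf1 (0.37) were highest. Luc7l2, a U1-associated gene lost in some human myeloid neoplasms, was at 7.41 at 3 h and 8.22 at 0 h (1.76-fold lower), against the direction of its relatives Luc7l3 and Luc7l (0.30). The kinases and partners that act on SR proteins had a median of 0.02 over 10 genes. Clk3 differed by 0.41, Clk1 by 0.16, Ppp1r8, which encodes a nuclear regulator of protein phosphatase 1, by 0.12, and Dyrk1a by -0.42.

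Genes for building snRNPs had a median of -0.26. Of 11 at the floor 9 were lower and 2 higher, and 5 were at least 1.2-fold lower, against 19.6% of all genes. Prmt5, the methyltransferase that modifies Sm proteins, was at 10.00 at 3 h and 10.36 at 0 h, and its partners Wdr77 (8.21 at 3 h, 8.56 at 0 h) and Clns1a (10.28 at 3 h, 10.62 at 0 h) were lower by nearly the same amount. Gemin5, which recognises the small nuclear RNAs, was at 7.77 at 3 h and 8.12 at 0 h. Restricted to the 5 genes with plain probe sets, which do not include Prmt5, Wdr77 or Clns1a, the median was -0.08.

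**Figure D3:**
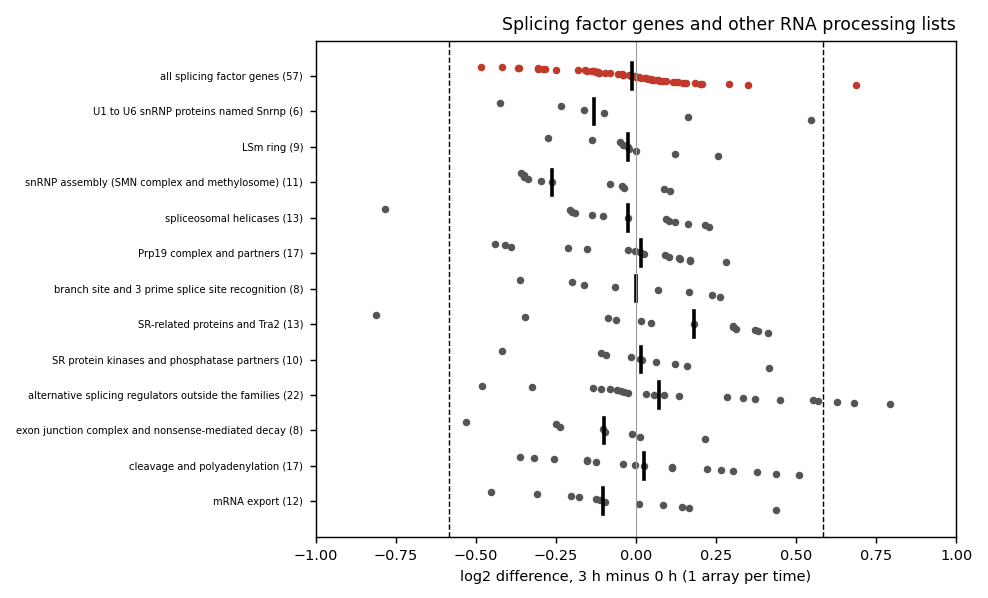
Log2 difference, 3 h minus 0 h (horizontal axis), of each gene at or above the floor in the splicing factor families (red, 57 genes) and in 12 other RNA processing lists (grey, number of genes in parentheses), with black bars for list medians and dashed lines at 1.5-fold. The snRNP assembly list has the median farthest to the left (-0.26), and the points beyond the dashed lines are Srsf6, Ptbp2, Tial1, Celf2, Ddx17 and Luc7l2.

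In the remaining spliceosome lists the share within 1.2-fold ran from 66.7% (Snrnp genes) to 92.3% (helicases), against 58% of all genes. The 9 LSm genes, whose proteins form the ring of the U6 snRNP and its relatives, had a median of -0.03 and 8 lay within 1.2-fold, with Lsm2 at -0.28, Lsm8 at 0.25, Lsm10 at -0.14 and Lsm3 at 0.12. The median was 0.02 for 17 genes of the Prp19 complex and its partners, in which Isy1 (-0.44), Bcas2 (-0.41) and Ppil1 (-0.39) were lower and Cdc5l (0.28) higher. It was 0.0014 for 8 genes of branch site and 3′ splice site recognition, with Rbm39 (-0.36) and Smndc1 (-0.20) lower and Sugp1 (0.26) and Puf60 (0.24) higher. The 13 helicase genes had a median of -0.02, which was 0.093 with a floor of 6.70. Of them 1 was at least 1.5-fold lower, against 4.8% of all genes: Ddx17 (5.21 at 3 h, 6.00 at 0 h) crossed the floor, and its paralog Ddx5 differed by 0.23. The 6 genes at the floor whose symbols begin with Snrnp had a median of -0.13, from Snrnp35 of the minor spliceosome (-0.42) to Snrnp200, the U5 helicase (7.05 at 3 h, 6.50 at 0 h).

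The windows printed above belong to a larger set. RefSeq windows of 250 bases before to 50 after the start were found for 55 of the 62 genes (75 windows). CCGGAAG, on either strand, was in 32% of these windows, against 18.1% of windows of all genes at or above the floor and 8.86% of all 32851 windows. It was in all 3 Sf3a and 3 of 4 Sf3b genes with a window, and in 2 of 17 Hnrnp genes. TGACGT was in 21.3% of the members' windows and 12% of those of genes at the floor, GCATGCG in 12% and 6.46%, CCAAT in 49.3% and 37.6%, CACGTG in 10.7% and 10.1%, and TATAAA in 8% and 7.09%. Each word was counted by itself, so that overlapping matches to 2 words count for both. Windows of different starts of a gene were counted separately, though some overlap, and members below the floor were included. By gene, CCGGAAG was in 19 of 55 members, TGACGT in 14 and GCATGCG in 5. The 9 member windows with GCATGCG included every window of Snrpn, which lay below the floor. Shares by gene were not set against those of other genes, so the percentages compare windows only. The 18 members at the floor with CCGGAAG had a median difference of -0.04 (6 higher, 12 lower) and the 32 without it one of -0.0002 (16 higher, 16 lower). A match is a description of these letters and no sign that a factor binds there.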

How the data were processed

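RNA of each sample was labelled with biotin and hybridised to an Affymetrix mouse array, per the labels' protocols. Per the submitters' processing notes, the affy package and RMA gave the deposited log2 values. RMA corrects background, quantile normalizes and summarises the probes of a probe set. Its version and the set of arrays it was run on are not stated. Its quantile step gives the probe intensities of all arrays 1 distribution, so a shift of all transcripts could not be seen. RMA also shrinks differences of dim signals. The summarised values still differed slightly between the arrays, with a median over all probe sets of 5.32 at 3 h and 5.29 at 0 h. Arrays have no read depth, and their number limits the precision.

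The table held 20666 probe sets, of which 17918 had 1 gene in a platform annotation table, 79 several and 2669 none. Only those with 1 gene were used, averaged per gene. Entrez IDs of all 62 members matched RefSeq genes of GRCm38.p6, and 0 symbols changed. The time in its title gave each sample's group. A gene was counted where its higher value reached 5.70. With 1 array per time no test was run. Genes named are those at least 1.5-fold different, the 2 highest and 2 lowest of each family, 10 chosen members, and up to 4 of each other list with the largest absolute difference. The remaining members and some relatives (Ptbp1, Tia1, Luc7l, Ddx5, Clk1) were named to account for families. Members and lists were chosen with earlier results of these data known. Alternatives were quantile normalization, removal of a loess trend (span 0.3), the brightest probe set, plain probe sets only, no floor, a floor of 6.70 and a floor on the mean. Steps were tested on simulated data. Python 3.11.15, numpy 2.4.6, pandas 2.3.3, statsmodels 0.14.6 and matplotlib 3.10.9 were used.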

Additional observations from a re-analysis of the deposited data

How the results depend on the processing

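No paired analysis was possible because each time has 1 array, and for the same reason no replicate could be left out. With no replicate spread, a value was taken as moved where it changed by 0.1 or more on the log2 scale, or a count by more than 1.5 times. The 62 members and the genes of the other lists, 219 in all, were followed (152 with plain probe sets only). Of these 1 moved: Hnrnpu differed by -0.15 with its brighter probe set, against 0.0002 for the average. Signs changed for 13 genes under quantile normalization and 12 under trend removal, Sf3b1 and Srsf1 among them. The family medians and the median of all members moved by less than 0.1 in each alternative. The median of all members was 0.0042 after quantile normalization, 0.02 after trend removal, and from -0.04 to -0.0083 in the other 5 alternatives. With plain probe sets only, 37 members were left: 15 were higher, 22 lower and 0 at least 1.5-fold higher, since Srsf6 has no such probe set. With no floor 1 member was at least 1.5-fold lower, Hnrnpa1. With plain probe sets, by loss of genes, the median of the branch site list was -0.11 (0.0014 with all probe sets) and that of the snRNP assembly list -0.081, against -0.26, no longer the lowest of the 12. The median of the helicases, -0.02, changed sign to 0.093 with the floor of 6.70 and to 0.093 with a floor on the mean.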

Other observations

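Steps that follow splicing were also measured, in lists chosen with earlier results of these data known. Of 17 cleavage and polyadenylation genes at or above the floor, 9 were higher and 8 lower at 3 h, with a median of 0.03. By 1.5-fold or more 0 were higher and 0 lower, against 6.94% and 4.8% of all genes. Cstf3, a subunit of the cleavage stimulation factor, was at 10.07 at 3 h and 9.57 at 0 h. Nudt21, of the complex that influences the choice of polyadenylation site, was at 9.15 at 3 h and 8.72 at 0 h, and the nuclear poly(A) binding protein gene Pabpn1 was at 7.92 at 3 h and 7.55 at 0 h. Cpsf3, the nuclease that cuts the transcript, was lower, at 10.39 at 3 h and 10.75 at 0 h.

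Among 12 mRNA export genes 5 were higher and 7 lower, where 51.5% and 48.5% of all genes were, with a median of -0.10. Within 1.2-fold lay 9 of the 12, against 58% of all genes. Sarnp (9.69 at 3 h, 10.14 at 0 h), Alyref (10.32 at 3 h, 10.63 at 0 h) and Thoc6 (8.73 at 3 h, 8.94 at 0 h) were lower, whereas Thoc2, the scaffold of the same THO complex, was higher (8.51 at 3 h, 8.07 at 0 h). Of 8 genes of the exon junction complex and nonsense-mediated decay 6 were lower and 2 higher, with a median of -0.10. Most were close to level, with 7 of the 8 within 1.2-fold (87.5%, against 58% of all genes). Upf2, an activator of the decay helicase, was lowest at 8.99 at 3 h and 9.53 at 0 h, followed by Smg9 (-0.25) and Rbm8a (-0.24), and Smg5 differed by 0.22. A probe set annotated to both Hnrnpa3 and Gm6793, and therefore left out of the members, was at 10.38 at 3 h and 10.36 at 0 h.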
